A study of Homo sapiens with 6 samples.

Results

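Amino acid transporters are membrane proteins that carry amino acids into and out of the cell. The 10 transporter genes described here are SLC3A2, SLC7A5, SLC7A11, SLC43A1, SLC7A1, SLC38A1, SLC38A2, SLC1A4, SLC1A5 and SLC6A9. They were chosen by name, with earlier results of these data known. Every probe set whose annotation gave exactly 1 of these symbols was taken, which made 41 of the 49293 probe sets tested and 10 of 18155 genes. A probe set is a group of short oligonucleotides on the array that together read a stretch of a transcript. The cells were of the MDA-MB-231 line, a human breast cancer line of metastatic origin without estrogen and progesterone receptors. They stably carried either a negative control lentivirus (NC, 3 arrays) or a lentivirus with the full-length coding sequence of CTCF, an insulator-binding zinc finger protein (CTCF-OE, 3 arrays), and growth medium and serum were the same for both. Total RNA was read on PrimeView arrays, and the comparison asked which transcripts differ when CTCF is forced. Whether each stable line was a clone or a pool is not given in the sources used here. The methods describe the study's data in general as coming from independent experiments, but neither they nor the array labels tie the arrays of a group to separate cultures. A p-value here covers the spread among 3 arrays a group, which may be technical.

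Several of these transporters work as pairs or in series. SLC3A2 (4F2hc, CD98) is a glycoprotein heavy chain that carries its light chains to the plasma membrane. SLC7A5 (LAT1) is the light chain that exchanges glutamine for leucine and other large neutral amino acids, and SLC7A11 (xCT) is the light chain that takes up cystine in exchange for glutamate, which supplies cysteine for glutathione. The glutamine that LAT1 exports is brought in by SLC1A5 (ASCT2) and by the sodium-coupled carriers SLC38A1 (SNAT1) and SLC38A2 (SNAT2). When amino acids are short, the kinase GCN2 phosphorylates eIF2α, translation of the transcription factor ATF4 rises, and ATF4 drives many transporter, synthesis and tRNA-charging genes through C/EBP-ATF response elements.

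The targeted gene, CTCF, had intensities of 463, 442 and 489 in the NC and 399, 388 and 399 in the CTCF-OE arrays at the 1 probe set annotated to it (log2 change -0.23, adjusted p = 0.0575 from limma over genes), so the arrays labelled CTCF-OE did not read more CTCF transcript there. Whether this probe set lies in the coding sequence that the virus carries was not given in the sources used here, and the directions below are those of the labels. The paper reports CTCF overexpression in the stably infected MDA-MB-231 cells by western blotting of the protein. It also measured CTCF mRNA and protein in xenograft tumors of such cells. Array medians lay between 83.3 and 84.5. Of the markers checked, VIM read 13746 to 14201 and CD44 4972 to 5361, while SPARC, which had been listed as high in this line, read 44.1 to 52.5. Of the 7 genes listed as low, KRT8 read 2793 to 2969, EPCAM 414 to 504, GATA3 327 to 359 and ERBB2 288 to 319, all above the array medians, while ESR1 read 52.4 to 61.2, PGR 7.67 to 9.10 and CDH1 12.3 to 15.4. The blood cell marker PTPRC, the leukocyte antigen CD45, read 7.03 to 7.61. Of the 21 marker genes measured, 0 passed an adjusted p under 0.05 in either direction with limma or with the methods' t-test, and 0 had an unadjusted p under 0.05. Control probe sets were not all level: the 9 for bacterial and phage hybridization controls had log2 changes between -0.08 and -0.03, and the 3 for 18S ribosomal RNA between -0.22 and -0.16, whereas the 12 polyA controls ran from -0.05 to 0.14 with 6 below 0, and those for ACTB and GAPDH lay between -0.01 and 0.03. The part of these control shifts in the transporter values was not tested.

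Most transporter probe sets had lower values in the CTCF-OE arrays, and SLC3A2 was the member that changed most. Of the 41 probe sets, 35 had a log2 change below 0, with a median of -0.12 against 0.00025 over all probe sets. At an adjusted p under 0.05 in limma with Benjamini-Hochberg adjustment over all probe sets, 11 were lower (26.8%, against 1.27% of all probe sets) and 0 higher (0.803% of all). This count rests on the full set of arrays: it was 5, 7 and 7 without NC replicate 1, 2 or 3 and 3 without each of the CTCF-OE replicates in turn. An unadjusted p under 0.05 was reached by 20 lower probe sets (8.85% of the array) and 1 higher one (8.19%). The methods' t-test gave 8 lower (0.74% of the array) and 0 higher (0.471%) after adjustment. With a fold change above 1.3 as well, 4 were called lower (0.446% of all probe sets) and 0 higher (0.191% of all), and all 4 were probe sets of SLC3A2. Without the 7 probe sets of SLC3A2, 4 of 34 passed as lower (11.8%), and the median was -0.09. The 3 CTCF-OE values lay below all 3 NC values in 22 of the 41 probe sets, a pattern shown by 12.8% of the array, and above them in 1. Probe sets of 1 gene read the same RNA and are not replicates of each other. The members were chosen with earlier results of these data known, so their shares beside those of the array are a description. In bulk RNA, less transcript in each cell and fewer cells that carry it cannot be told apart.

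**Figure D1:**
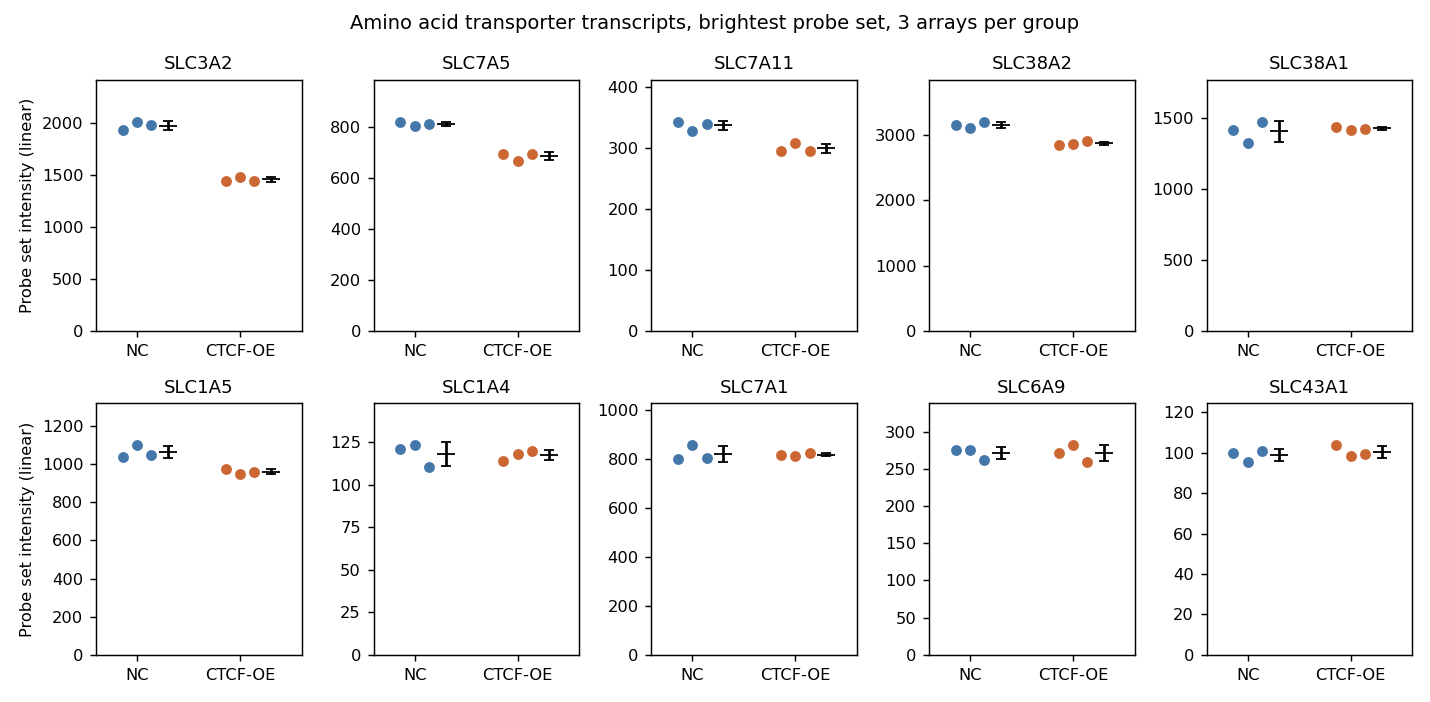
Intensity (linear scale, from 0) of each transporter at its brightest probe set in the 3 NC arrays (blue) and the 3 CTCF-OE arrays (orange), with the mean and SD of each group in black. The groups do not overlap for SLC3A2, SLC7A5, SLC7A11, SLC38A2 and SLC1A5, and they overlap for SLC38A1, SLC1A4, SLC7A1, SLC6A9 and SLC43A1. Of all genes at their brightest probe set, 13.3% were lower and 11.4% higher in CTCF-OE without overlap.

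When each gene was read by its brightest probe set alone, the one with the highest mean over the 6 arrays, 8 of the 10 transporters had a log2 change below 0, with a median of -0.07 against 0.00019 over all genes. SLC3A2 (adjusted p = 0.00319 from limma over genes) and SLC7A5 (adjusted p = 0.0238) were lower, against 1.39% of all genes. Higher were 0, against 0.727% of all genes. Only SLC3A2 also passed the 1.3-fold threshold, which 0.468% of genes passed as lower and 0.0716% as higher. SLC7A5 did not pass when any 1 array was left out, with adjusted p between 0.0626 and 0.113, whereas SLC3A2 passed without each of the 6 arrays in turn, with adjusted p between 0.0201 and 0.0320.

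SLC3A2, the heavy chain, fell at every probe set. At its brightest probe set, 11741582_a_at, its intensity was 1925, 2008 and 1978 in the NC group, against 1442, 1482 and 1442 with CTCF-OE. The lowest NC value was well above the highest CTCF-OE value. The log2 change was -0.44 (standard error 0.037, 95% interval -0.52 to -0.35, adjusted p = 0.00477 from limma), a fall by 26.1%. The spread between arrays was small beside this difference, with 1970 ± 42.5 in the NC arrays and 1456 ± 23.04 in the CTCF-OE arrays (SD, n = 3 each).

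The other 6 probe sets of SLC3A2 gave nearly the same change. Probe set 11746697_a_at read 1595, 1655 and 1598 in the NC group and 1212, 1193 and 1179 in the CTCF-OE group, a log2 change of -0.44 (standard error 0.037), and 11733071_a_at had -0.42 (standard error 0.041). Probe set 11753434_a_at passed the fold threshold narrowly with -0.38, while 11753435_x_at, 11741149_x_at and 11754529_x_at stayed just under it with 1.295-fold, 1.294-fold and 1.285-fold. Over the 7 probe sets the log2 changes ran from -0.44 to -0.36 and the adjusted p from 0.00466 to 0.0156. In each of the 7 the groups did not overlap. With 1 array left out, 11741582_a_at, 11746697_a_at and 11733071_a_at passed an adjusted p of 0.05 in 6 of 6 fits, 11753434_a_at and 11753435_x_at in 3, and the remaining pair in 2. An _x_at probe set holds probes that can also match other transcripts, so those 3 are the less specific readings of the gene. The brightest probe sets of SLC1A5, ASNS, GDF15, ASS1, ATF4, EIF2AK4 and EIF2S1, read below, are also of this kind. Whether the _s_at probe sets, among them that of CTCF, match other transcripts was not tested.

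**Figure D2:**
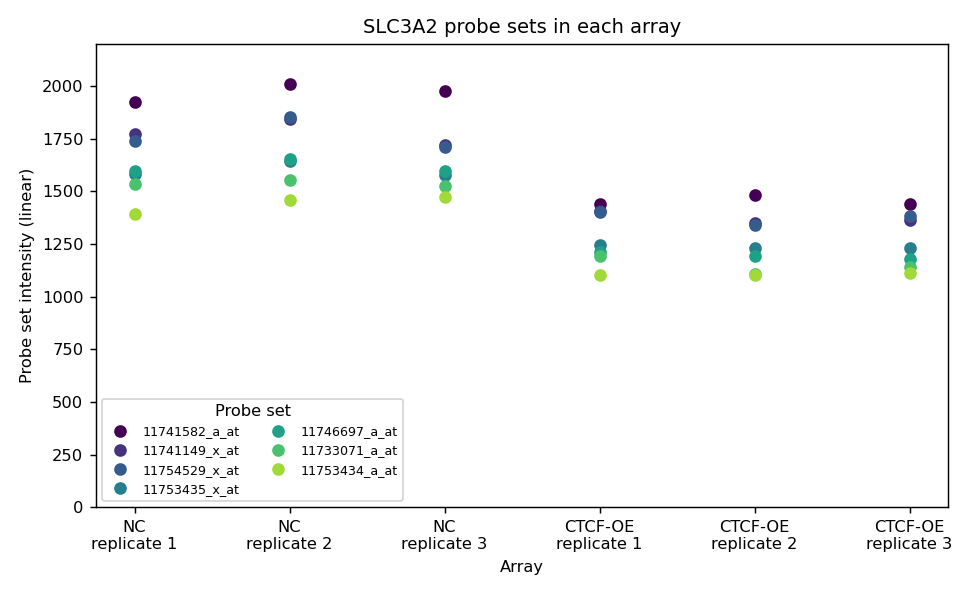
Intensity (linear scale, from 0) of the 7 SLC3A2 probe sets in each of the 6 arrays, 1 colour per probe set. Every probe set is lower in the 3 CTCF-OE arrays than in the 3 NC arrays, by 1.28-fold to 1.35-fold.

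The sequence before a start site of SLC3A2 on chromosome 11 (RefSeq, build GRCh38.p14, chr11:62881449-62881698, plus strand) is shown because this gene had the largest change. The capitals mark a match to TGACNNNGC, the core letters of the antioxidant response element, whose first base lies at -37 from the start.
SLC3A2: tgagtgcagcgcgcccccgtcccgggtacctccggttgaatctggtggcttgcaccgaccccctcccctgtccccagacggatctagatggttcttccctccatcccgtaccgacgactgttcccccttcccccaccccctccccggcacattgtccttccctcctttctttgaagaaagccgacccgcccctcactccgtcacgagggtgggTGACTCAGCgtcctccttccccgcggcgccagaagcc

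Windows from 250 bases before to 50 after each RefSeq start were also searched on both strands for TGATGNAA (the core letters of the C/EBP-ATF response element), TGACGTCA (the cAMP response element) and the core letters of the CTCF motif. The table held 16 such windows for 9 of the 10 transporters and none for SLC7A11. TGATGNAA was in 5 of the 16 windows, 1 each for SLC3A2, SLC1A5, SLC1A4, SLC38A1 and SLC7A1, and in 3.62% of all 35116 windows. TGACNNNGC was in 4 windows (13.3% of all), the CTCF motif core in 4 (12% of all) and TGACGTCA in 0 (1.85% of all). The 5 stretches with TGATGNAA are set side by side with that of ASNS, asparagine synthetase, whose promoter is a textbook example of a response to amino acid shortage. Capitals mark the match, which in SLC3A2 and SLC1A4 is on the opposite strand.
SLC3A2 (chr11:62881719-62881748, plus strand): gtaatgtgcaggactccTTACATCAgctcc
SLC1A5 (chr19:46784893-46784922, minus strand): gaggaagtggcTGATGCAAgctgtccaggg
SLC1A4 (chr2:64989381-64989410, plus strand): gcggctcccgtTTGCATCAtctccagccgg
SLC38A1 (chr12:46266502-46266531, minus strand): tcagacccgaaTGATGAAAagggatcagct
SLC7A1 (chr13:29595663-29595692, minus strand): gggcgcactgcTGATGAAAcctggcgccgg
ASNS (chr7:97872458-97872487, minus strand): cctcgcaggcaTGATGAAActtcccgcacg
A match of letters in these windows is a description and not a bound site. Of the genes with TGATGNAA, SLC3A2 and SLC1A5 had probe sets that passed as lower, and SLC1A4, SLC38A1 and SLC7A1 had none. SLC7A5 and SLC38A2, which also had such probe sets, had no match in these windows.

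SLC7A5, the large neutral amino acid light chain, was lower at its brighter probe set. That probe set, 11739061_at, gave 819, 803 and 808 with NC against 695, 666 and 693 with CTCF-OE, without overlap. The log2 change was -0.24 (standard error 0.037, 95% interval -0.33 to -0.15, adjusted p = 0.0288 from limma over probe sets), a fall by 15.5%, and the adjusted p rose to between 0.0714 and 0.129 when any 1 array was left out. The dimmer probe set, 11739060_s_at, read 176, 170 and 188 against 163, 162 and 167, with no overlap but a smaller change of -0.12 (adjusted p = 0.282).

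The 250 bases before the SLC7A5 start (RefSeq, GRCh38.p14, chr16:87869508-87869757, minus strand) are shown as the promoter of the only light chain that passed the threshold. The capitals mark a match to the core letters of the CTCF motif, whose first base lies at -80.
SLC7A5: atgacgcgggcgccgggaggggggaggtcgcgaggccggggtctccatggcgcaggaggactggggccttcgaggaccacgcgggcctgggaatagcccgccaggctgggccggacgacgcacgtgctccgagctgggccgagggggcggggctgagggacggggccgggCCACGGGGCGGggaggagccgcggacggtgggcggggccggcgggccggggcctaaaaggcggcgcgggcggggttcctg

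SLC7A11, the cystine light chain, did not pass the threshold. Its brightest probe set, 11721876_s_at, read 343, 327 and 339 (NC) against 294, 308 and 295 (CTCF-OE). The groups did not overlap, and the log2 change was -0.17 (standard error 0.040, 95% interval -0.26 to -0.07, adjusted p = 0.0929 from limma). Probe set 11721875_at read 176, 174 and 180 against 152, 162 and 170, a change of -0.13 (adjusted p = 0.254). The third, 11744680_a_at, overlapped between the groups and had a change of -0.03 with an interval from -0.21 to 0.16.

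**Figure D3:**
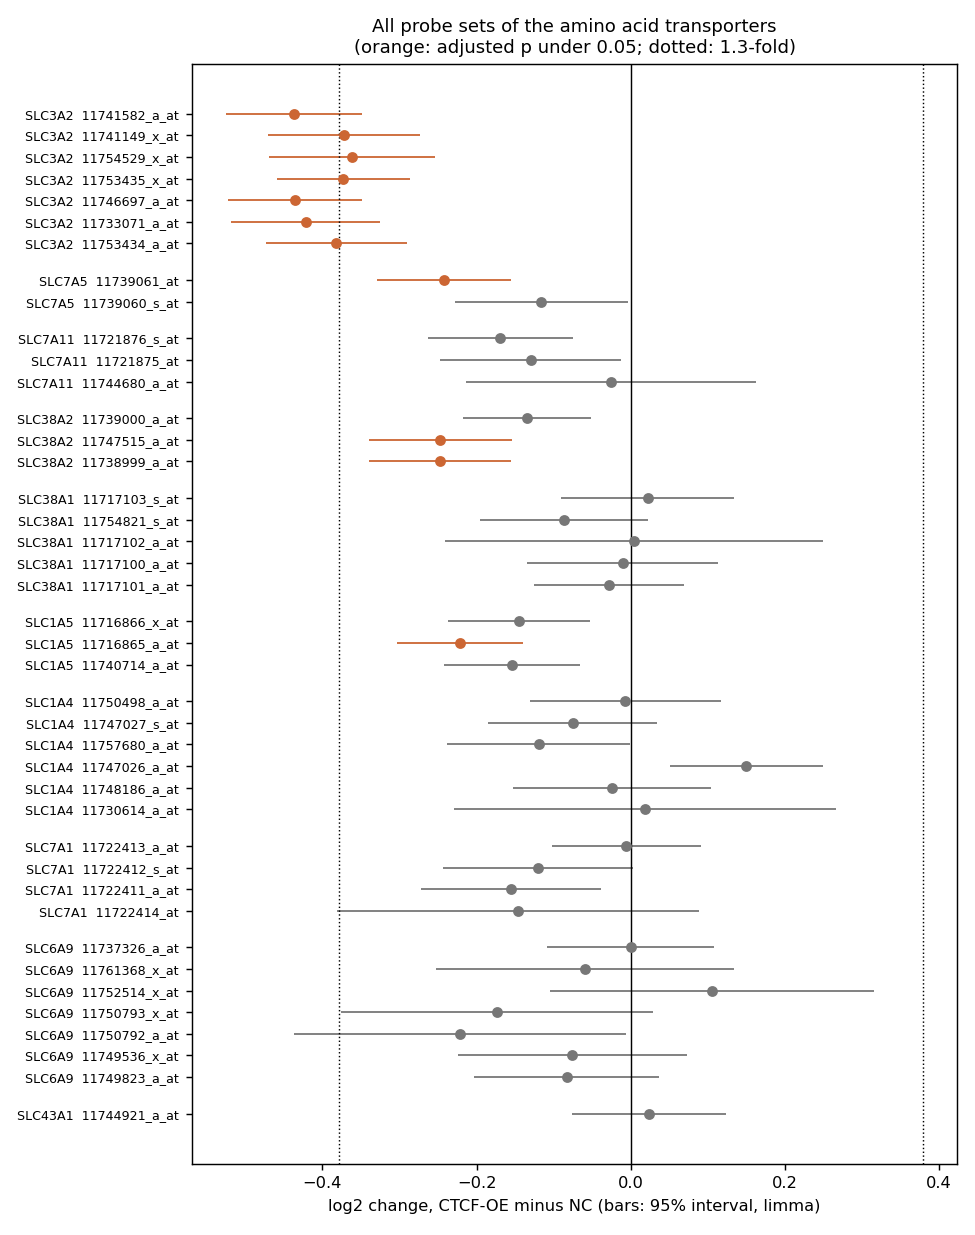
Log2 change (CTCF-OE minus NC) of each of the 41 transporter probe sets with its 95% interval from limma; orange marks an adjusted p under 0.05 and the dotted lines mark a 1.3-fold change. The 7 probe sets of SLC3A2 lie between -0.44 and -0.36, and the other 4 orange points, of SLC7A5, SLC38A2 and SLC1A5, between -0.25 and -0.22.

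Of the sodium-coupled neutral carriers, SLC38A2 had probe sets that passed and SLC38A1 had none; SLC38A1 and SLC38A2 are neighbouring protein-coding genes on chromosome 12. SLC38A2 (SNAT2), which takes up small neutral amino acids such as alanine and glutamine and is known to respond to amino acid shortage, was lower at 2 of its 3 probe sets. Probe set 11738999_a_at read 391, 405 and 391 with NC and 340, 323 and 336 with CTCF-OE, a log2 change of -0.25 with a standard error of 0.039 (limma, adjusted p = 0.0316). Probe set 11747515_a_at read 729, 774 and 742 against 639, 626 and 626, also a change of -0.25 (adjusted p = 0.0323). The brightest, 11739000_a_at, read 3150, 3107 and 3206 against 2855, 2857 and 2905, without overlap but with a smaller change of -0.14 (adjusted p = 0.116). Neither of the 2 that passed did so with any 1 array left out, where their adjusted p ran from 0.0763 to 0.139.

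SLC38A1 (SNAT1), a glutamine carrier of the same family, had log2 changes between -0.09 and 0.02 at its 5 probe sets, with adjusted p between 0.397 and 0.989. Its brightest probe set, 11717103_s_at, read 1421, 1330 and 1478 in the NC group and 1443, 1420 and 1427 in the CTCF-OE group. The CTCF-OE values lay within the NC range, and the 95% interval of the log2 change was -0.09 to 0.13.

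Of the ASC exchangers, which swap small neutral amino acids with sodium, SLC1A5 (ASCT2), the glutamine exchanger, was lower at 1 of 3 probe sets and SLC1A4 (ASCT1), which exchanges serine, alanine and cysteine, had no probe set past the threshold. SLC1A5 probe set 11716865_a_at read 821, 836 and 839 (NC) against 720, 716 and 705 (CTCF-OE), a log2 change of -0.22 (standard error 0.035, 95% interval -0.30 to -0.14, adjusted p = 0.0307 from limma). Leaving out any 1 array brought its adjusted p to between 0.0792 and 0.135. The brightest, 11716866_x_at, read 1040, 1098 and 1047 against 973, 948 and 958, a change of -0.14 (adjusted p = 0.125), and 11740714_a_at had -0.15 (adjusted p = 0.0998). The groups did not overlap in any of the 3.

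SLC1A4 was dim, with mean intensities of 17.8 to 118 over its 6 probe sets, and its changes ran from -0.12 to 0.15 with adjusted p between 0.136 and 0.964. The highest change was at 11747026_a_at, which read 51.5, 48.0 and 50.3 with NC and 56.7, 54.5 and 55.2 with CTCF-OE. This was the only transporter probe set whose CTCF-OE values all lay above its NC values, against 11.6% of the array. At SLC1A4 probe set 11757680_a_at the CTCF-OE values all lay below, narrowly, as in 12.8% of the array. Its log2 change was -0.12 (adjusted p = 0.291 from limma). The brightest probe set of SLC1A4, 11750498_a_at, read 121, 123 and 110 against 114, 118 and 120, and the interval of the change was -0.13 to 0.12.

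The cationic carrier SLC7A1 (CAT1), which takes up arginine and lysine, did not pass at any of its 4 probe sets. Its brightest, 11722413_a_at, read 801, 857 and 806 in the NC group and 817, 813 and 824 in the CTCF-OE group, a log2 change of -0.01 with an interval from -0.10 to 0.09. The 3 dimmer probe sets had changes of -0.12, -0.16 and -0.15 with adjusted p between 0.179 and 0.511. At 11722411_a_at and 11722412_s_at the groups did not overlap, so the probe sets of this gene disagree in size, and the brightest is the one nearest to 0.

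SLC6A9 (GLYT1), a sodium- and chloride-coupled glycine transporter, and SLC43A1 (LAT3), a uniporter of branched-chain amino acids and phenylalanine that needs no heavy chain, did not pass either. SLC6A9 read 276, 275 and 262 (NC) against 271, 281 and 260 (CTCF-OE) at its brightest probe set, 11737326_a_at, and the 95% interval of its log2 change was -0.11 to 0.11. Its 6 dimmer probe sets, all with mean intensities under 80, had changes between -0.22 and 0.11 and adjusted p between 0.284 and 0.766. SLC43A1 has 1 probe set, 11744921_a_at, which read 99.8, 95.4 and 101 against 104, 98.3 and 99.2, with an interval of -0.08 to 0.12.

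Whether partner transporters changed by unequal amounts was examined within each array, as the log2 difference between their brightest probe sets, for 5 pairs. In all 5 pairs the 3 CTCF-OE values lay beyond the 3 NC values, and each gave p = 0.1 in an exact two-sided permutation test, the smallest p that 3 arrays against 3 allow (0.1 after Benjamini-Hochberg adjustment over the 5 pairs), so none could pass 0.05. SLC3A2 minus SLC7A11 was 2.49, 2.61 and 2.54 with NC and 2.29, 2.26 and 2.29 with CTCF-OE, a change of -0.27. SLC3A2 minus SLC7A5 was 1.23, 1.32 and 1.29 against 1.05, 1.15 and 1.06, a change of -0.19. The heavy chain transcript read lower relative to each light chain in every CTCF-OE array than in any NC array.

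The remaining pairs compared carriers that share substrates. SLC7A5 minus SLC43A1, the large neutral exchanger and uniporter, changed by -0.27, from 3.02 ± 0.036 to 2.76 ± 0.031 (SD, n = 3 each). SLC38A1 minus SLC38A2 changed by 0.16 and SLC1A4 minus SLC1A5 by 0.14. At these brightest probe sets none of the 4 genes passed the test on its own. The level of such a difference depends on the probes, and only its change between the groups is read here. That change can also depend on the probe set chosen. Log2 changes ran from -0.25 to -0.14 over the probe sets of SLC38A2 and from -0.12 to 0.15 over those of SLC1A4. The part of this in the pair changes was not tested. With the median over all probe sets of each gene in place of the brightest, SLC38A1 minus SLC38A2 overlapped between the groups (change 0.25, exact permutation p = 0.2).

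**Figure D4:**
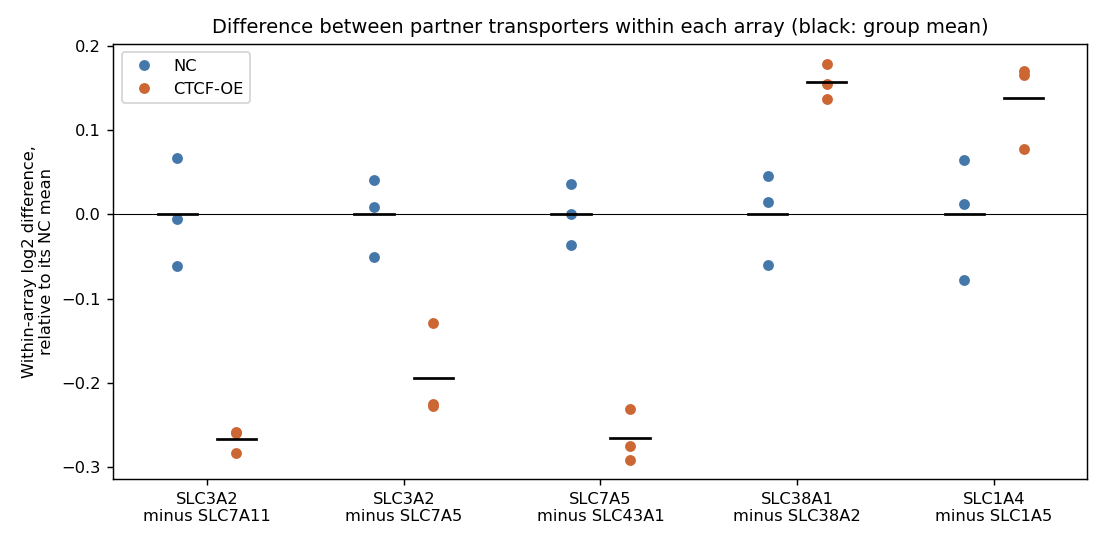
Within-array log2 difference between the brightest probe sets of 5 transporter pairs, shown relative to the mean of the NC arrays of that pair (blue NC, orange CTCF-OE, black lines group means, 3 arrays each). The orange points lie below the blue ones for the first 3 pairs, with changes of -0.27, -0.19 and -0.27, and above them for the pairs of SLC38A and SLC1A genes, with 0.16 and 0.14.

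None of the other amino acid transporters listed passed the test. Over 42 such genes at their brightest probe set, limma and the methods' t-test each gave 0 lower and 0 higher after adjustment. In limma 1.39% of all genes were lower and 0.727% higher. At an unadjusted p under 0.05, limma gave 3 lower and 6 higher, against 8.85% and 8.19% of all probe sets. The median log2 change was -0.01. The extremes, picked after their values were seen, were SLC7A2 (CAT2), a cationic amino acid transporter, with a change of 0.29 (adjusted p = 0.0659), and SLC43A2 (LAT4), a relative of SLC43A1, with -0.31 (adjusted p = 0.147). SLC7A2 read 166, 160 and 171 in the NC group and 220, 194 and 194 in the CTCF-OE group. The groups did not overlap, a pattern that 11.4% of all genes showed as higher.

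Several genes listed as ATF4 pathway regulators were lower, and the ATF4 transcript did not pass the test. The list was chosen with earlier results of these data known. In limma 8 of the 22 measured passed an adjusted p of 0.05 as lower and 0 as higher, against 1.39% lower and 0.727% higher of all genes, and the median was -0.14. An unadjusted p under 0.05 in limma was reached by 12 lower and 1 higher, against 8.85% and 8.19% of all probe sets. The methods' t-test gave 5 lower and 0 higher after adjustment, against 0.74% and 0.471% of all probe sets. TRIB3, a pseudokinase that restrains ATF4, read 368, 386 and 358 (NC) against 231, 206 and 215 (CTCF-OE), a log2 change of -0.77 (limma over genes, adjusted p = 0.00250). SESN2, a leucine-binding inhibitor of mTORC1, read 168, 168 and 169 against 105, 105 and 101 (log2 change -0.69). ATF3, a stress-induced relative of ATF4, and GDF15, a stress cytokine, had changes of -0.78 and -0.63. Over the settings run, the change of ATF3 ranged from -0.84 to -0.70 and that of GDF15 from -0.95 to -0.59. None of these 4 genes overlapped between the groups, but they were picked for the largest changes among those that passed. The lack of overlap, shown as lower by 13.3% of all genes, therefore adds nothing to their test. ATF4 itself had a log2 change of -0.06 (adjusted p = 0.459 from limma over genes). The eIF2α gene EIF2S1 had -0.01 and the GCN2 gene EIF2AK4 -0.006. The kinase genes EIF2AK1, EIF2AK2 and EIF2AK3 had 0.02, 0.15 and 0.06, and none of them passed. The arrays read RNA, so translation of ATF4 and phosphorylation of eIF2α were not measured.

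Enzymes that make or use amino acids gave a mixed picture. In limma 3 of the 21 measured passed as lower and 1 as higher, against 1.39% and 0.727% of all genes, with a median of -0.03. The methods' t-test gave 2 lower and 0 higher, against 0.74% and 0.471% of all probe sets. ASNS read 717, 738 and 722 with NC and 374, 369 and 372 with CTCF-OE, a log2 change of -0.96 (standard error 0.032) at its brightest probe set, which was larger than that of any transporter. CTH, which releases cysteine from cystathionine and so provides another source of it beside cystine uptake, had -0.61, and ASS1, argininosuccinate synthetase, -0.23. ARG2, mitochondrial arginase, rose by 0.36 (adjusted p = 0.0197). With 1 array left out, ASNS and CTH passed in 6 of 6 fits, ARG2 in 2 (adjusted p 0.0362 to 0.0993) and ASS1 in 0 (0.0526 to 0.166). Of 20 genes of glutathione synthesis and cystine use and 31 of amino acid sensing by mTORC1, 0 passed in either direction with limma or the methods' t-test. Their medians were -0.03 and -0.02, and without adjustment limma gave 2 lower and 1 higher in the first list and 4 lower and 2 higher in the second. Of all probe sets, 8.85% were lower and 8.19% higher without adjustment. The counts of 0 hold for the genes as listed. SESN2 (log2 change -0.69) and CHAC1 (-0.37), which passed as lower in limma, were counted in the ATF4 list and in neither of these lists.

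**Figure D5:**
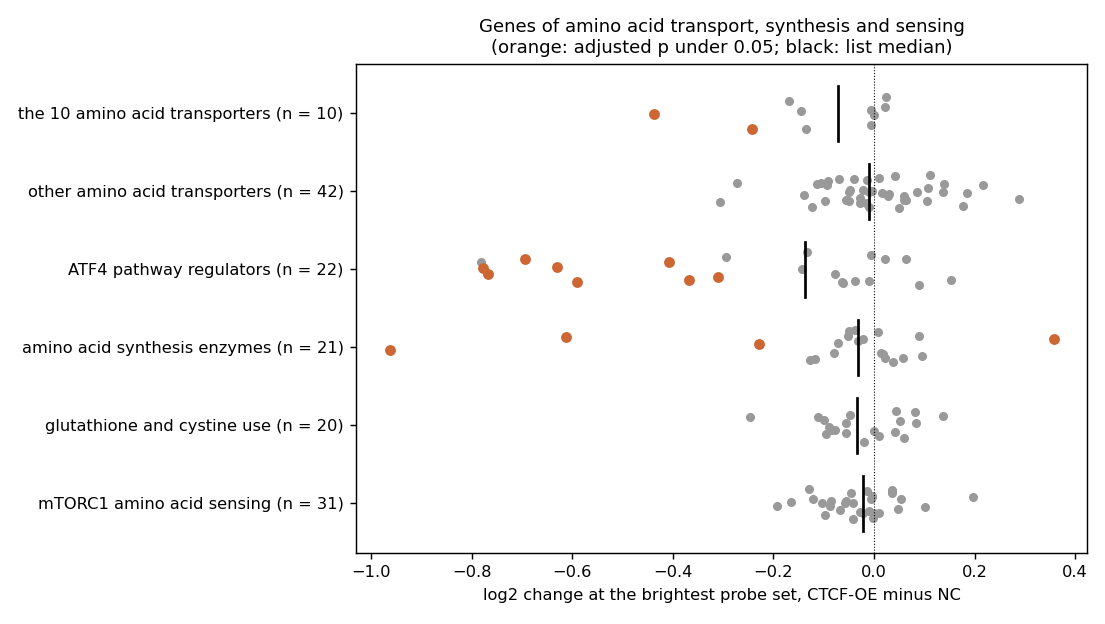
Log2 change (CTCF-OE minus NC) at the brightest probe set for the 10 transporters and for genes of 5 related lists, 1 point per gene with random vertical offset; orange marks an adjusted p under 0.05 and black lines the list medians. Orange points stand at 2 of the 10 transporters, 0 of 42 other transporters, 8 of 22 genes listed as ATF4 pathway regulators and 4 of 21 amino acid enzymes.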

How the data were processed

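The authors extracted total RNA from MDA-MB-231 cells, labelled it as biotinylated cRNA and hybridized it to PrimeView arrays. Each deposited value is the intensity of a probe set on a linear scale, with nearly equal array medians, so a normalization between arrays is already in them; its method, the background correction and the software are not given in the sources used here. All 6 columns were assigned by their labels. The log2(intensity + 1) values of 49293 probe sets, with 102 control probe sets set apart, entered limma 3.58.1 (R 4.3.3; group as the only coefficient, Benjamini-Hochberg adjustment). The added 1 slightly lowers the fold changes of dim probe sets. The fit was repeated over 18155 genes, each read by its brightest probe set annotated to it alone. The fold threshold of 1.3 is that of the study's methods, and the p it goes with is adjusted here (under 0.05). The number of arrays limits the precision. Members and gene lists were chosen with earlier results of these data known. All members are named, and all their probe sets are counted, some of them given only within a range. Also named are CTCF and in each list the 4 genes with the largest change among those with an adjusted p under 0.05. ATF4, EIF2S1 and the EIF2AK kinase genes are named for their place in the pathway. Markers of the line and of other cell types are named from their own lists, and SLC7A2 and SLC43A2 were named after their values were seen; 5 enzymes listed, 1 glutathione gene, 1 sensing gene and 1 blood marker were not analysed here. The procedure was tested on simulated data. The alternatives were another pseudocount, quantile normalization, median centring, a filter on dim probe sets, an intensity trend, array weights, the methods' t-test, a replicate block, each array left out, the median over probe sets and another fold threshold. Figures were drawn with matplotlib 3.10.9.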

Additional observations from a re-analysis of the deposited data

How the results depend on the processing

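By gene, SLC3A2 was the 1 transporter called lower, and 0 were called higher, under every alternative run (another pseudocount, scaling, filter, variance model, array left out, replicate block, probe set rule or fold threshold). The count of transporter probe sets called lower, 4 in the report, was 7 with a fold threshold of 1.2 and 0 with the replicate number as a block, and 3 to 6 with 1 array left out. Without the fold threshold, the count of transporter genes lower at their brightest probe set, 2 in the report, was 4 with a pseudocount of 16, 5 without the dimmer 50% of the probe sets, 5 with an intensity trend, 1 with the replicate block and 1 to 1 with any 1 array left out. Over all probe sets, 220 were called lower and 94 higher, against 62 and 11 with the replicate block, 111 and 38 with the methods' t-test and 461 and 284 with a fold threshold of 1.2; with 1 array left out 111 to 169 were lower and 33 to 79 higher. Without the fold threshold, 0 transporter probe sets were lower with the block, against 11. Arrays share only a replicate number: the deviations of same-numbered arrays from their group means correlated at 0.012, 0.0054 and 0.0094, and 4 of 6 arrays correlated best with their own number. With the median of all probe sets in place of the brightest, the partner differences were -0.20 for SLC7A5 minus SLC43A1, 0.25 for SLC38A1 minus SLC38A2 and 0.24 for SLC1A4 minus SLC1A5.

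Of 563 alternative values of single transporter probe sets, 470 kept their direction and side of the threshold, 52 lost it, 11 gained it and 30 changed sign. The sign changes were all at probe sets near 0 that did not pass the threshold under any alternative run. With quantile normalization the values were 0.000079 (SLC38A1 11717100_a_at), 0.0055 (SLC1A4 11750498_a_at), 0.0042 (SLC7A1 11722413_a_at) and 0.0067 (SLC6A9 11737326_a_at). With array weights they were -0.011 (SLC38A1 11717102_a_at), 0.012 (SLC38A1 11717100_a_at) and 0.0048 (SLC7A1 11722413_a_at), and with median centring 0.0044 (SLC6A9 11737326_a_at). With 1 array left out the changes ran from -0.097 to 0.035 for SLC7A11 11744680_a_at, -0.019 to 0.057 for SLC38A1 11717103_s_at, -0.102 to 0.092 for 11717102_a_at and -0.048 to 0.019 for 11717100_a_at. They ran from -0.056 to 0.024 for SLC1A4 11750498_a_at, -0.059 to 0.021 for 11748186_a_at and -0.045 to 0.128 for 11730614_a_at. They ran from -0.023 to 0.025 for SLC7A1 11722413_a_at, -0.029 to 0.029 for SLC6A9 11737326_a_at, -0.109 to 0.024 for SLC6A9 11761368_x_at and -0.00089 to 0.040 for SLC43A1. The cause of these changes was not tested. The number of arrays limits what can be detected.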
